A study of Mus musculus with 6 samples.

Results

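The 10 genes of striated muscle described here, called the members, were followed in cultures of mouse embryonic fibroblasts (MEFs), the connective-tissue cells that grow out when an embryo is minced and plated. They were taken by name from the 55487 genes of each deposited table and not by a threshold on measured values. Earlier results of these data were known when they were chosen. The list holds 3 transcription factors that set the skeletal muscle fate (Myod1, Myog and Myf5), 2 striated muscle actins (Acta1 and Actc1), 4 other sarcomere proteins (Myh3, Ttn, Tnnt2 and Tnnt3) and the intermediate filament protein desmin (Des). RNA was sequenced from 6 libraries, 3 of knockout (KO) and 3 of wild-type (WT) MEFs, with 1 library of each genotype at passages 2, 3 and 4. All cultures were untreated and grown under ordinary conditions, and both genotypes carried a "control" wording in their titles. The knocked-out gene, the allele, the strain and the age and number of embryos do not appear in the labels. The series title names mTORC1, the CCL24-CCR3 axis and granulomas in sarcoidosis. Since separate cultures or embryos are not stated, the p-values measure only the spread between these libraries. In the KO against WT fit that spread includes the change between passages, since the 3 libraries of a genotype are its 3 passages. The rest of it may be technical.

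Skeletal muscle forms when MyoD and Myf5 commit a mesodermal cell to the muscle lineage and myogenin then drives it out of the cell cycle, to fuse and to build sarcomeres. A cell that takes this path makes embryonic myosin, cardiac and skeletal actin, troponins and titin together. Fibroblasts build stress fibres from cytoplasmic and smooth muscle actins. They can also transcribe single striated muscle genes, since serum response factor acts on many actin promoters in all of these cells. An embryo that is minced holds limb and trunk muscle beside connective tissue, so a young MEF culture can carry myoblasts.

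Library totals ran from 24853121 to 67760880 expected counts, the lowest in the WT library of passage 4 and the highest in the KO library of passage 3. A count of 0 in a library allows up to 3 counts, or 0.0431 to 0.124 CPM (counts scaled by the library's total and composition), and this limit covers counting error only. All 12 fibroblast markers that were checked had a mean above 1 TPM (a level corrected for transcript length, with the same sum in each library), so the markers of the labelled cell type were present. Of these 12 markers, 6 were lower in KO by the edgeR test (Col1a1, Col1a2, Col3a1, Pdgfra, Dcn and Fbln1), and with the passage number as a block Lum was too (adjusted p = 0.0674 without the block and 0.00708 with it). The titles and the genotype tag went apart in 2 libraries, the KO-titled ones of passages 3 and 4, whose tag reads WT. Xist, the RNA of the inactive X chromosome, had 564, 417 and 567 CPM in the KO libraries and 0.118, 0.301 and 0.207 CPM in the WT libraries of passages 2, 3 and 4. The Y-linked gene Ddx3y had 0.0721, 0 and 0.731 CPM in KO against 86.4, 88.0 and 73.4 CPM in WT. The titles were followed throughout, and genotype and sex cannot be told apart in any KO against WT difference given here.

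On the TPM scale, which compares levels between genes, the 10 members fell into 3 ranges. Acta1 and Des were the only members above 10 TPM on average over the 6 libraries, with Acta1 at 67.3 ± 42.4 TPM in KO and 10.2 ± 2.17 TPM in WT and Des at 37.1 ± 21.7 TPM in KO and 20.2 ± 10.3 TPM in WT (SD, n = 3 each). Their ranges overlapped in both genotypes. Next came the troponin T genes, with Tnnt2 at 2.46 ± 0.145 TPM in KO and 1.21 ± 0.776 TPM in WT and Tnnt3 at 1.47 ± 0.269 TPM in KO and 2.35 ± 0.703 TPM in WT. Tnnt2 stood above Tnnt3 in all 3 KO libraries, while in WT the ranges overlapped. These TPM values depend on lengths that RSEM set anew in each library, from 805 to 1256 bases for Tnnt2 and from 485 to 822 for Tnnt3. For Tnnt2 in KO, TPM was 2.31, 2.46 and 2.6 at passages 2, 3 and 4, while CPM was 1.44, 1.44 and 0.954. The remaining members averaged under 1 TPM over the 6 libraries, in the order Actc1 (0.673 TPM), Myh3 (0.293 TPM), Myog (0.167 TPM), Ttn (0.127 TPM), Myod1 (0.09 TPM) and Myf5 (0), with neighbours in this order overlapping in both genotypes except Myf5. For comparison, the smooth muscle actin Acta2, which activated fibroblasts use in their stress fibres, averaged 3124 TPM.

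The fate regulators were close to the limit of counting. Myf5, which with MyoD commits cells to muscle (ENSMUSG00000000435, GRCm38 chr10:107482908-107486134, minus strand), had 0 counts in all 6 libraries. Myod1, the gene of MyoD (ENSMUSG00000009471, chr7:46376474-46379099, plus strand), had 6, 2 and 1 counts in the KO libraries of passages 2, 3 and 4, against 10, 0 and 1 counts in the WT libraries. Myog, the gene of myogenin (ENSMUSG00000026459, chr1:134289989-134292548, plus strand), had 5, 3 and 0 counts in KO and 23, 1 and 0 counts in WT. In both genotypes the counts of both genes were highest at passage 2. In CPM the passage 2 libraries had 0.216 in KO and 0.236 in WT for Myod1, and 0.180 in KO and 0.544 in WT for Myog. At passage 4 Myog was at 0 counts. Against the floor of 3 counts per library, passage 2 stood at 1.89-fold in KO and 4.38-fold in WT. These ratios leave out the counting error of the 5 and 23 counts at passage 2, so they are not lower bounds. None of the 3 passed the filter on low counts, which asked for about 10 counts in at least 3 libraries, and at these depths no KO against WT difference in them was detectable. In a fit without that filter the change per passage of Myog was -3.11 on the log2 scale (edgeR adjusted p = 0.000204) and that of Myod1 was -1.81 (adjusted p = 0.0889), resting on 8 counts of Myog in KO and 24 in WT, and on 9 counts of Myod1 in KO and 11 in WT. The p-values of this fit are not comparable with those of the filtered fit. For Des, at -0.98 and -0.96 per passage, the edgeR adjusted p was 3.1e-28 without the filter and 0.0368 with it.

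**Figure D1:**
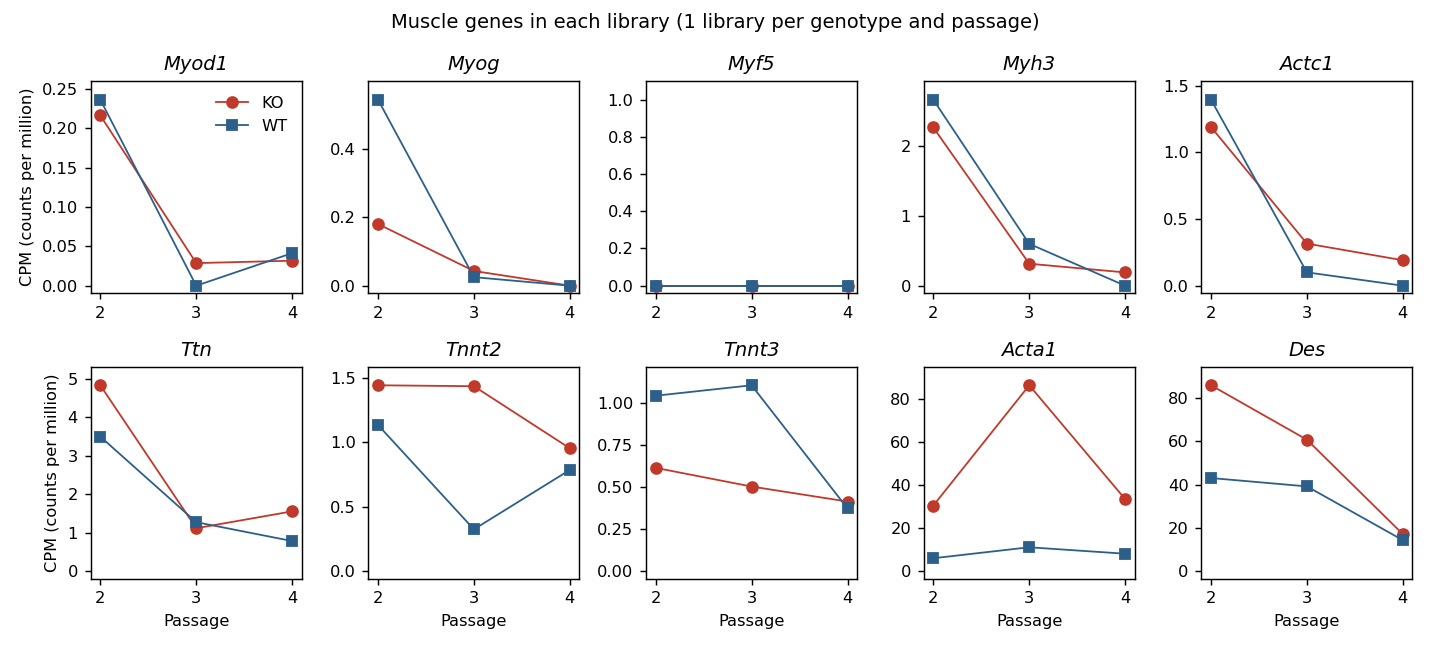
CPM of each of the 10 members (vertical axes, each panel with its own scale) at passages 2, 3 and 4 (horizontal axes), with 1 point per library and lines joining the libraries of a genotype. Myh3, Actc1, Ttn and Des end at passage 4 below their passage 2 level in both genotypes, Acta1 is separated by genotype at each passage, and all Myf5 points lie at 0.

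Embryonic myosin, cardiac actin, titin and desmin fell with passage in KO and WT cultures alike in direction. Myh3, the embryonic myosin heavy chain of newly formed muscle fibres (ENSMUSG00000020908, chr11:67078300-67102291, plus strand), had 2.27, 0.316 and 0.191 CPM in KO at passages 2, 3 and 4, and 2.67, 0.601 and 0 CPM in WT. These were 63, 22 and 6 counts in KO and 113, 24 and 0 counts in WT, so the passage 2 libraries were highest and the genotypes overlapped. The change per passage was -2.32 ± 0.34 on the log2 scale (SE, edgeR adjusted p = 0.00948), and passage 2 stood 11.9-fold above passage 4 in KO. In WT it stood 21.5-fold above the passage 4 floor of 3 counts. Actc1, the actin of cardiac muscle that embryonic skeletal muscle also makes (ENSMUSG00000068614, chr2:114047282-114053548, minus strand), had 1.19, 0.316 and 0.191 CPM in KO and 1.39, 0.1 and 0 CPM in WT. Its counts were 33, 22 and 6 in KO and 59, 4 and 0 in WT, again with passage 2 highest in both. Its change per passage was -2.12 ± 0.41 (adjusted p = 0.0272). Passage 2 was at 6.24-fold over passage 4 in KO and at 11.2-fold over the passage 4 floor of 3 counts in WT.

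Ttn encodes titin, the giant spring that spans the sarcomere from Z-disc to M-line (ENSMUSG00000051747, chr2:76703980-76982547, minus strand). It had 4.83, 1.12 and 1.56 CPM in KO and 3.50, 1.28 and 0.786 CPM in WT, with passage 2 highest in both and no separation of the genotypes. Its change per passage was -0.96 ± 0.23 (edgeR adjusted p = 0.0493), at the edge of the threshold. The call ended with effective lengths as offsets (adjusted p = 0.183), by limma-voom (0.0678), with a minimum count of 30 (0.0538) and on the log2(TPM + 1) and log2(TPM + 0.1) scales (0.522 and 0.265). The TPM of Ttn is less useful, because the length that RSEM gave the gene ran from 13492 to 68396 bases between libraries as its estimate moved among 25 annotated transcripts. Des, the muscle intermediate filament that ties neighbouring Z-discs together (ENSMUSG00000026208, chr1:75360329-75368579, plus strand), was far better counted. It had 85.7, 60.7 and 17.1 CPM in KO and 43.0, 39.1 and 14.4 CPM in WT, from 347 to 4228 counts. Each step of passage was lower than the last in both genotypes, with a change per passage of -0.96 ± 0.19 (adjusted p = 0.0368) and with passage 2 at 5.0-fold over passage 4 in KO and 2.99-fold in WT.

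In all, 4 of the 7 members that could be tested fell with passage and 0 rose, where 3.48% of the 16603 genes tested fell, 2.78% rose and 6.25% were called in either direction. The median change per passage of the 7 was -0.96, beside 0.0035 over all genes tested. Members such as Myh3 and Actc1 entered the test through their counts at the earlier passages. Because the list was also chosen with earlier results of these data known, these shares describe it and do not test it. Of the 10 members 7 had their highest CPM at passage 2 in both genotypes, 5 of them among the 7 tested, beside 18.4% of all genes tested. Tnnt2 was among these by 1.442 CPM at passage 2 against 1.435 at passage 3 in KO, and Myod1 and Myog rest on few counts. The calls depended on single libraries. Myh3 lost its call without the KO (adjusted p = 0.0747) or the WT (adjusted p = 0.0858) library of passage 2. Actc1 lost it without the KO library of passage 2 (adjusted p = 0.0790) or 3 (adjusted p = 0.0610) or the WT library of passage 4 (adjusted p = 0.0934), and without the WT library of passage 2 it had too few counts to be tested. Des lost its call without the KO library of passage 2 (adjusted p = 0.208) or 4 (adjusted p = 0.120) or the WT library of passage 4 (adjusted p = 0.166). Of the fits that left out 1 library, Ttn kept its call in that without the KO library of passage 3 (adjusted p = 0.0259) and lost it in the other 5 (adjusted p from 0.0641 to 0.303). Without both libraries of passage 2, Des kept its call (-1.64 per passage, adjusted p = 0.0274), Myh3 did not (-2.04, adjusted p = 0.507), Ttn was at -0.061 (adjusted p = 0.985), and Actc1 had too few counts to be tested.

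**Figure D2:**
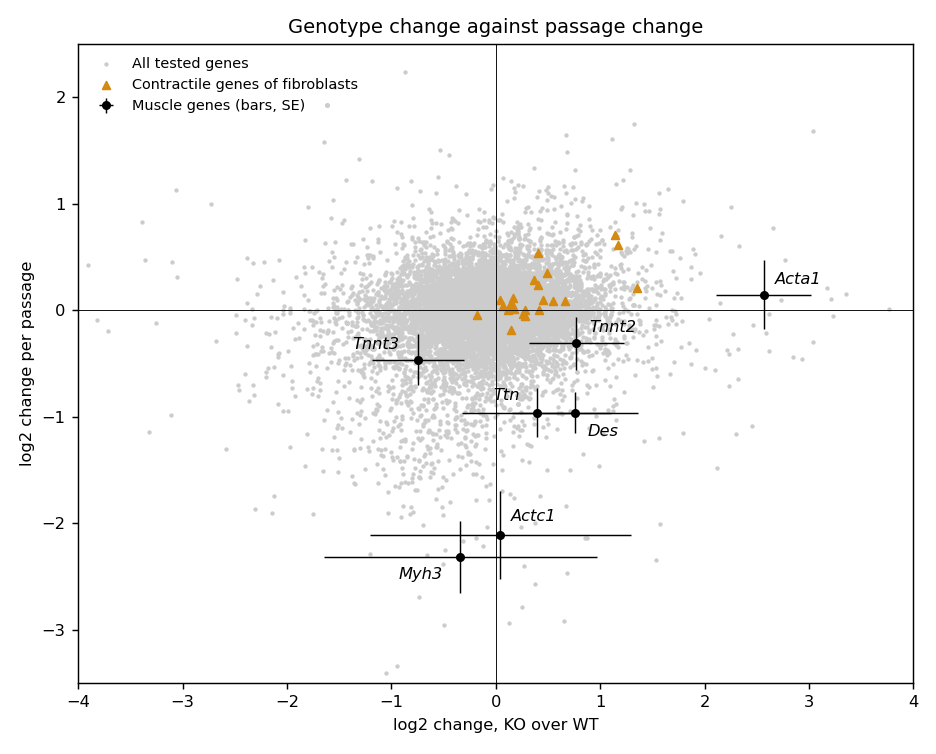
Log2 change between KO and WT (horizontal axis) against log2 change per passage (vertical axis) for the 7 tested members (black, bars of 1 SE), 23 fibroblast contractile genes (triangles) and all other tested genes (grey, 62 of them outside the axes). Acta1 lies furthest right of the members, near 0 on the passage axis, while Myh3 and Actc1 are the lowest members, near 0 on the genotype axis.

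The slopes of KO and WT were compared in a fit with a term for their difference. By edgeR 0 genes passed (0% of 16603), members included, with 1137 genes at an unadjusted p under 0.05. DESeq2 called 83 genes, and edgeR without the filter on low counts 289, with 0 members in either. The member with the smallest p was Actc1, whose change per passage was less steep in KO than in WT by 2.43 ± 0.70 on the log2 scale (SE, unadjusted p = 0.0118, edgeR adjusted p = 0.576). In bulk RNA, fewer cells of a type and less RNA per cell cannot be told apart, so the decline of these transcripts is given as a level per library.

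Markers of other cell types fell with passage as well, all of them for macrophages and a part of them for the other types. All 8 macrophage markers fell with passage, with a summed level of 332, 112 and 56.3 TPM in KO at passages 2, 3 and 4 and of 484, 230 and 64.5 TPM in WT. Of the endothelial markers 3 of 8 fell (Pecam1, Cdh5 and Tie1), with sums of 68.2, 48.2 and 49.0 TPM in KO and 88.8, 87.8 and 83.1 TPM in WT. Epithelial markers fell in 3 of 7 tested (Krt8, Krt14 and Krt5), with sums of 15.1, 11.1 and 5.33 TPM in KO and 22.0, 3.99 and 1.65 TPM in WT, and glial or neural markers in 2 of 6 tested (Sox10 and S100b), with sums of 64.5, 72.1 and 55.4 TPM in KO and 63.7, 51.8 and 56.2 TPM in WT. None of the 12 fibroblast markers passed in the passage test. The part of cell mixture in the decline of the muscle transcripts was not tested.

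The 5 promoters printed here are those of the actin that differed between genotypes (Acta1), of the other striated actin (Actc1), of the embryonic myosin and myogenin, which mark muscle cells, and of desmin. RefSeq (GRCm38.p6) gave 9 windows for 8 of the 10 members, with no entry for Myod1 and Tnnt3. Each run holds the 250 bases before the start annotated by RefSeq, 5′ to 3′ on the gene's strand. For Acta1, Actc1, Myog and Des that start is not the first base of the gene span given here. The Actc1 window lies inside its span, and the Myog window reaches into its span. Capitals mark E-boxes (CANNTG, the core bound by MyoD and myogenin, the same on both strands) and CArG boxes (the site of serum response factor). The windows are Acta1 chr8:123894776-123895025 (minus strand), Actc1 chr2:114052876-114053125 (minus strand), Myh3 chr11:67078050-67078299 (plus strand), Myog chr1:134289754-134290003 (plus strand) and Des chr1:75360042-75360291 (plus strand).
Acta1: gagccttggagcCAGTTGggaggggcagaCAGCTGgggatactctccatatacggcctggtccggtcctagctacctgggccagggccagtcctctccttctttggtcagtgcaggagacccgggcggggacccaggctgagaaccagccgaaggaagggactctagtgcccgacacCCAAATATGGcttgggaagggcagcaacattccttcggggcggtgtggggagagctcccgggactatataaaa
Actc1: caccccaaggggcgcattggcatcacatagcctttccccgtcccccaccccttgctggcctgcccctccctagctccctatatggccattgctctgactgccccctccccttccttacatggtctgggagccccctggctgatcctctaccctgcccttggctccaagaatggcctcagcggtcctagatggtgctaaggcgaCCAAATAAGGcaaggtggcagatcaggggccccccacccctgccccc
Myh3: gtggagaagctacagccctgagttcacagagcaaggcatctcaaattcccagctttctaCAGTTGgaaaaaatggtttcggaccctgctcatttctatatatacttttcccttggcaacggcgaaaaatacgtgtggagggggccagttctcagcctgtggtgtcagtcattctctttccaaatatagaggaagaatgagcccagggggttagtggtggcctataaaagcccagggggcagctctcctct
Myog: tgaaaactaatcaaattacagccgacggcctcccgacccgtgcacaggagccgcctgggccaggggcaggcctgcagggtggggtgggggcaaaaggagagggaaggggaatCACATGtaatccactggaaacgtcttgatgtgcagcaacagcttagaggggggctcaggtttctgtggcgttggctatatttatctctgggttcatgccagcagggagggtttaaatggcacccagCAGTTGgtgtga
Des: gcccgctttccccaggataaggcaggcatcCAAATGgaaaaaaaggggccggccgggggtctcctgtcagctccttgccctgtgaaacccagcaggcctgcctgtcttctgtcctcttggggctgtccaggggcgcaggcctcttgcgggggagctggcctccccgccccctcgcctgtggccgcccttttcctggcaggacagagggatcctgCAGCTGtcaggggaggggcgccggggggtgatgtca

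Both striated actin promoters held 1 CArG box, at 73 bases before the start in Acta1 and 47 bases before it in Actc1, a motif found in 1.47% of the 32851 promoter windows searched. The other member windows held none. E-boxes stood in the windows of Acta1 (2), Myh3 (1), Myog (2), Des (2), Ttn (1) and Tnnt2 (4 and 1 in its 2 windows) and in neither that of Actc1 nor that of Myf5, and they are common, with 66.2% of all windows holding at least 1 and 31.8% at least 2. TATAAA, the TATA box, was found in the windows of Acta1 and Myh3 and in 7.59% of all windows. CATTCC, the MCAT element, searched on both strands, was found 46 bases before the start in Acta1, in 1 of the Tnnt2 windows and in 12.6% of all windows. In the windows printed no E-box overlapped a CArG box. These matches describe letters and do not show that a factor was bound. The Pearson correlation between Acta1 and Actc1 over the 6 libraries was 0.14 on log2 CPM, with Actc1 at 0 to 59 counts per library. Whether the CArG boxes bear on these levels was not tested.

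Acta1 was the 1 member called between genotypes in the fit without the passage block. Acta1 encodes the main actin of adult skeletal muscle thin filaments (ENSMUSG00000031972, chr8:123891769-123894751, minus strand). It had 30.6, 86.5 and 33.6 CPM in KO at passages 2, 3 and 4, against 6.10, 11.2 and 8.19 CPM in WT, from 848, 6030 and 1056 counts in KO and 258, 447 and 198 counts in WT. Each KO library was above every WT library, and the KO library of passage 3 was the highest of all. The ratio of KO to WT was 5.01 at passage 2, 7.73 at passage 3 and 4.10 at passage 4. The fitted log2 change was 2.57 ± 0.46 (SE, edgeR adjusted p = 0.0391), and with passage as a block it was 2.45 (adjusted p = 0.00178). No change with passage was called (0.15 ± 0.33 per passage, adjusted p = 0.857).

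The direction of the Acta1 difference was the same in 17 of 17 alternatives, and it was called in 8 of them. Without the KO library of passage 3 the log2 change was 1.92 (edgeR adjusted p = 0.0609). Without the WT library of passage 2, 3 or 4 the adjusted p was 0.107, 0.142 or 0.0606, and without both libraries of passage 2 it was 0.0996. Grouping by the genotype tag, which sets 1 KO library against 5, gave a log2 change of 0.06. Of the 64-base words of its transcripts 1.11% also occur in another gene (14 of 1532 in Actb, and none in Acta2, Actg2 or Actc1). Acta1 lies inside the span of Gm20388 on the opposite strand without shared exon bases. Gm20388 had 120, 111 and 153 CPM in KO and 166, 165 and 195 CPM in WT, the opposite order to that of Acta1.

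Among the 7 members tested, 1 rose in KO and 0 fell, where 0.934% of all genes tested rose, 1.55% fell and 2.48% were called in either direction. Acta1 was also the 1 member whose KO libraries all stood above the WT libraries, a pattern of 13.1% of all genes tested. With the passage block 2 members rose and 0 fell, where 4.69% of genes rose, 6.37% fell and 11.1% were called in either direction. Des was the other member. Des had a log2 change of 0.76 ± 0.60 in the fit without the block (edgeR adjusted p = 0.522) and of 0.64 ± 0.14 with it (adjusted p = 0.0348), and at each passage its KO library was above the WT library of that passage. Markers of other cell types also differed between genotypes. With the passage block 4 of 8 macrophage markers fell in KO (Adgre1, Csf1r, Ptprc and Itgam, edgeR adjusted p from 0.0114 to 0.0487), where none was called without it. Of the 7 epithelial markers tested 1, Krt18, rose with the block (adjusted p = 0.0395) and was not called without it, 1 of the 8 endothelial markers fell in both fits (Flt1), and 0 of the 6 neural or glial markers tested were called in either. The part of these cell types in the Acta1 difference was not tested.

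The troponin T genes, whose proteins anchor the troponin complex to tropomyosin, went in opposite directions without a call. Tnnt2, the cardiac and embryonic form (ENSMUSG00000026414, chr1:135836354-135852260, plus strand), had 1.44, 1.44 and 0.954 CPM in KO and 1.13, 0.326 and 0.786 CPM in WT (log2 0.77 ± 0.46, edgeR adjusted p = 0.382). Tnnt3, the form of fast skeletal fibres (ENSMUSG00000061723, chr7:142498836-142516009, plus strand), had 0.613, 0.502 and 0.413 CPM in KO and 1.04, 1.1 and 0.372 CPM in WT (log2 -0.75 ± 0.44, adjusted p = 0.378). Tnnt2 had 40, 100 and 30 counts in KO and 48, 13 and 19 counts in WT. Tnnt3 had 17, 35 and 13 counts in KO and 44, 44 and 9 counts in WT, and at passage 4 it was higher in KO (1.11-fold). In both genes the genotypes overlapped, and no change with passage was called (Tnnt2 -0.31 ± 0.25 per passage, adjusted p = 0.539, and Tnnt3 -0.46 ± 0.24, adjusted p = 0.311). The KO against WT change was 0.39 ± 0.71 for Ttn (adjusted p = 0.801), 0.04 ± 1.25 for Actc1 (adjusted p = 0.989) and -0.34 ± 1.31 for Myh3 (adjusted p = 0.915). The standard errors of Actc1 and Myh3 in this fit exceed a log2 unit, so a change of 2-fold in either direction was not detectable for them in it. With the passage block the change was 0.69 ± 0.61 for Actc1 (edgeR adjusted p = 0.498) and -0.21 ± 0.53 for Myh3 (adjusted p = 0.831).

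**Figure D3:**
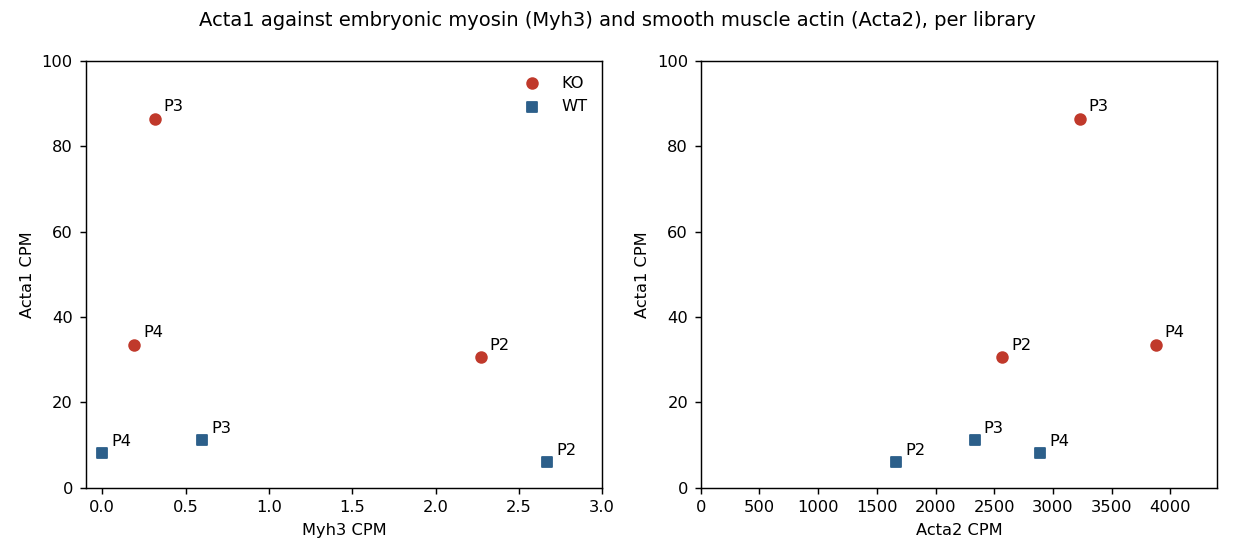
CPM of Acta1 (vertical axes) against CPM of Myh3 (left) and of the smooth muscle actin Acta2 (right), with 1 point per library marked by genotype and passage. The 3 KO points lie above the 3 WT points in both panels, and in the KO library of passage 3, where Acta1 is highest at 86.5 CPM, Myh3 was at 0.316 CPM.

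The actin gene that rose in KO and the myogenic genes were therefore set side by side. Over the 6 libraries, and as a description only since the points share passages and genotypes, the correlation of log2 CPM was 0.92 between Actc1 and Myh3, 0.91 between Actc1 and Ttn, 0.90 between Myh3 and Ttn and 0.86 between Myog and Myh3. Acta1 had -0.04 with Myh3, -0.28 with Myog, -0.21 with Myod1, -0.06 with Ttn and 0.14 with Actc1. With Tnnt2, Tnnt3 and Des it had 0.49, -0.44 and 0.37. Not all other pairs were high, with 0.24 between Myh3 and Tnnt2 and -0.41 between Tnnt2 and Tnnt3. Des had 0.79 with Myh3 and 0.75 with Actc1. In the KO library of passage 4, Acta1 stood at 33.6 CPM with 0 counts of Myog, 0 of Myf5, 1 of Myod1 and 6 of Myh3. In the WT library of passage 2, which held the most Myog (23 counts) and Myh3 (113 counts), Acta1 was at its lowest, 6.10 CPM. In the KO library of passage 2, with 63 counts of Myh3, Acta1 was at 30.6 CPM. KO and WT libraries differ in genotype and sex together, so these levels cannot be set against each other by muscle transcripts alone. The correlations of Acta1 with Myod1, Myog, Myh3, Actc1 and Ttn ran from -0.28 to 0.14, and those with Tnnt2, Tnnt3 and Des from -0.44 to 0.49. The part of muscle cells in the level of Acta1 was not tested.

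Contractile genes that fibroblasts express were also higher in KO in part. Of 23 such genes, all of them tested, 2 rose in KO and 0 fell, beside 0.934% and 1.55% of all genes, with a median log2 change of 0.28 beside -0.01 over all genes. Actg2, a smooth muscle actin, had 113, 167 and 155 CPM in KO against 48.9, 57.9 and 63.5 CPM in WT (log2 1.35 ± 0.17, edgeR adjusted p = 0.0140), with no overlap. Tpm1, a tropomyosin of stress fibres and of muscle, had 1510, 1735 and 1608 CPM in KO against 896, 1096 and 1082 CPM in WT (log2 0.66, adjusted p = 0.0399). Acta2 had 2564, 3228 and 3873 CPM in KO and 1665, 2334 and 2893 CPM in WT (log2 0.49, adjusted p = 0.278, and 0.0260 with the passage block). The summed level of the 23 genes was 24165, 28376 and 27495 TPM in KO and 19001, 19073 and 20010 TPM in WT. With the block 7 of the 23 rose, beside 4.69% of all genes. With passage 3 rose and 0 fell, beside 2.78% and 3.48%, the direction opposite to the myogenic members, namely Acta2 (0.35 per passage, adjusted p = 0.0183), the smooth muscle myosin Myh11 (0.70, adjusted p = 0.00721) and the actin nucleator Lmod1 (0.53, adjusted p = 0.0433). Actg2 lost its call without the KO library of passage 3 (adjusted p = 0.0723) or the WT library of passage 2 or 3 (0.0503 and 0.0961), and Tpm1 lost it without any 1 of the 6 libraries (adjusted p from 0.0532 to 0.229). Leaving out 1 library at a time ended the passage call of Acta2 in 4 of 6 fits (KO passages 2 and 4, WT passages 2 and 4, adjusted p up to 0.115), of Myh11 in 1 (KO passage 4, 0.0684) and of Lmod1 in 5 (all but WT passage 3, up to 0.220). Without both passage 2 libraries none of the 3 was called (Acta2 0.456, Myh11 0.251 and Lmod1 0.811, the last with a change of 0.16 per passage), and Tpm1 was not called between genotypes (0.122).

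The wider striated muscle programme was taken from 7 lists of 98 other genes, of which 41 had enough counts to be tested. In KO 1 of the 41 rose, 0 fell and 40 were not called, and their median log2 change was 0.17. Over all genes tested 0.934% rose and 1.55% fell. The gene was Fabp3, the fatty acid carrier of heart and skeletal muscle, at 11.3, 10.05 and 7.76 CPM in KO against 3.50, 2.86 and 3.48 CPM in WT (log2 1.57 ± 0.20, edgeR adjusted p = 0.0150). It lost its call without the KO library of passage 3 (adjusted p = 0.0932) or the WT library of passage 2 or 3 (0.0504 and 0.0900), and without both passage 2 libraries (0.0881). With the passage block 5 rose and 5 fell, where 4.69% of all genes rose and 6.37% fell. Those that rose were Fabp3, the Z-disc protein Ldb3, the small heat shock protein Cryab, the junctional membrane protein Jph2 and the natriuretic peptide Nppb. Those that fell were the transcription factors Mef2c, Gata4 and Tbx5, the fast-fibre actinin Actn3 and the Z-disc protein Pdlim3.

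With passage, 1 of the 41 fell and 0 rose, where 3.48% of all genes fell and 2.78% rose, and the median change per passage was -0.08. The gene was Tnni1, the slow skeletal troponin I that embryonic muscle also makes, with 0.577, 0.273 and 0.0318 CPM in KO and 0.520, 0.225 and 0.0828 CPM in WT (-1.45 ± 0.30 per passage, edgeR adjusted p = 0.0314). It had 16, 19 and 1 counts in KO and 22, 9 and 2 counts in WT, so it was tested through the earlier passages, where it was high, and a minimum count of 30 removed it. Its call was lost without the KO library of passage 2 (adjusted p = 0.162), 3 (0.0519) or 4 (0.144) or the WT library of passage 4 (0.105). Of the 98 genes 41 had their highest CPM at passage 2 in both genotypes, but only 10 of those were among the 41 tested, beside the 18.4% of all genes tested, and the others rest on few counts. The number of the 98 with at least 1 count was 87, 88 and 74 in KO at passages 2, 3 and 4, and 94, 86 and 66 in WT. Library totals in the same order were 27361852, 67760880 and 30473493 expected counts in KO and 42335628, 41933793 and 24853121 in WT. Detection of a single count depends on these totals. No correction for depth was made, and the share detected over all genes was not computed. Several of the untested genes belong to fusing or newly formed fibres, and 3 are named here after their values were seen. Mymk, the fusion protein myomaker, had 9, 2 and 0 counts in KO and 11, 1 and 0 counts in WT. Myl1, a fast skeletal myosin light chain, had 27, 11 and 1 counts in KO and 40, 9 and 2 counts in WT, and the perinatal myosin Myh8 had 28, 8 and 1 counts in KO and 58, 10 and 1 counts in WT. These 3 are a selection. Of the fusion list 6 of 10 genes, and of the thick-filament list 10 of 19, had their highest CPM at passage 2 in both genotypes, while others such as Cdh15, Myl4 and Myom1 did not.

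**Figure D4:**
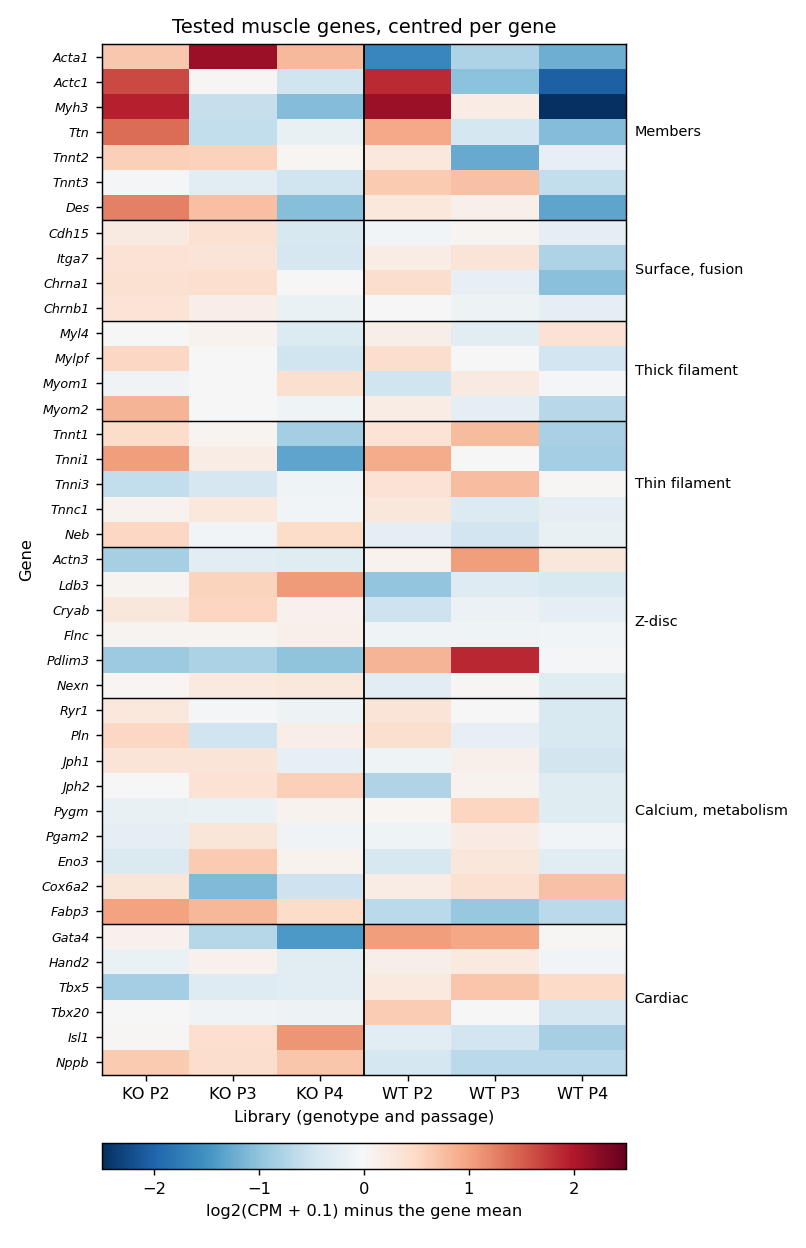
Log2(CPM + 0.1) of the tested members and tested genes of 6 of the 7 wider muscle lists, all but the precursor and fate factors (rows, grouped by role), in each of the 6 libraries (columns, KO left of WT and passages 2 to 4 within each), as the difference from the gene's mean over the libraries, with colours limited at 2.5 in either direction. Myh3 and Actc1 are high in the passage 2 columns of both genotypes, Myh3 reaches the lower limit in the WT column of passage 4, and Acta1 and Fabp3 are higher in the 3 KO columns than in the 3 WT columns.

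By role, and in the fits without the passage block, the lists beyond the members held the following. Of the muscle precursor and fate factors 0 of 7 tested were called by edgeR in KO against WT or with passage, and 1, Mef2c, was called in KO against WT with the block. Mef2d and Mef2a, factors that many non-muscle cells also make, were the best expressed of them, at 42.7 and 31.8 TPM on average. The satellite cell factor Pax7 was counted once in each of a pair of libraries, KO of passage 3 and WT of passage 2, and Myf6 was not counted at all. Of the myoblast surface and fusion genes 0 of 4 tested were called, led by the laminin receptor subunit Itga7 (7.82 TPM), the acetylcholine receptor subunit Chrnb1 (2.80 TPM) and M-cadherin, Cdh15 (0.247 TPM). The 4 tested of 19 thick-filament genes were not called, among them the fast regulatory light chain Mylpf (4.12 TPM), the embryonic light chain Myl4 (2.41 TPM) and myomesin, Myom1 (1.13 TPM). Of the 6 tested of 20 Z-disc genes none was called without the block (4 were with it), and the highest were filamin C, Flnc (92.2 TPM), Cryab (67.1 TPM) and the actin-binding protein Nexn (44.8 TPM). Of the thin-filament genes 5 of 10 were tested, with Tnni1 the 1 that fell with passage, and of the calcium handling and metabolism genes 9 of 20 were tested, with Fabp3 the 1 that rose in KO. Of the cardiac factors 0 of 6 tested were called without the block (3 were with it), led by Hand2 (5.72 TPM), Tbx5 (4.36 TPM) and Gata4 (0.953 TPM). The striated muscle myosin and troponin genes named here stayed under 5 TPM on average.

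The genes most like Acta1, Des and Myh3 over the 6 libraries were sought among protein-coding genes whose log2 CPM averaged 2 or more, a limit that leaves out most striated muscle genes, Actc1, Myog and Ttn among them. By Pearson correlation of log2 CPM among 10736 genes (10737 for Myh3), Acta1 was closest to Dcbld1 (0.991), a membrane receptor-like protein, the tubulin gene Tuba4a (0.990), the ribosome rescue factor Hbs1l (0.987), Garem2 (0.985) and Tmem200a (0.985). Des was closest to the actin capping protein gene Capg (0.995), the histone variant gene H2afz (0.991), the tubulin gene Tubb5 (0.991), Sptssa (0.991) and Blvra (0.989). Myh3 was closest to Proser3 (0.991), the synaptic scaffold gene Homer1 (0.989), the pyrophosphatase gene Enpp1 (0.988), the laminin chain gene Lama5 (0.983) and Gm14305 (0.981). With 6 points and this many genes, such values are a description of these libraries.

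Few exact 64-base words of the other members occur in another gene. Words with mismatches were not searched, and the effect of shared sequence on the counts was not tested. Myh3 shared 2.65% of its 64-base words with other genes, most of them other myosin heavy chains, Tnnt2 shared 0.0244%, and the remaining members shared none. The strand setting of the counting is not stated in the labels, and the genes that overlap Ttn and Des in exons, Gm13938 and Gm15179, had at most 1 count in a library.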

How the data were processed

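The submitters' processing notes name Trimmomatic 0.39, a read trimmer, RSEM, which estimates gene abundance, and mouse build GRCm38. No source used here gives the RSEM version, the annotation release or the strand setting. The authors deposited 1 table per library, with expected counts (ambiguous reads shared out by a model, so that 12.0% to 15.8% of values were not whole), TPM and FPKM. The deposited TPM values correct for transcript length and sum alike in each library, and the deposited FPKM values were not used. Of 55487 genes, 55227 matched GENCODE release M21 for names.

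Rounded expected counts with TMM scaling entered edgeR 4.0.16 in R 4.3.3 (quasi-likelihood, robust, 2-sided), after a filter with minimum count 10 that left 16603 genes. A call is a Benjamini-Hochberg adjusted p under 0.05 over those genes. Residual degrees of freedom were 4 for KO against WT (genotype as the single term), 3 for a linear passage term beside genotype, and 2 for the difference of slopes. The scripts were tested on simulated data. Libraries of the same passage number deviated together, with correlations of 0.488, 0.137 and 0.416 at passages 2, 3 and 4, so the passage block is given where it changes a call of a member or a list. The shared numbers come from the passage in the titles. No 2 libraries agreed within sampling noise.

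Alternatives were DESeq2 1.42.0, its size factors in edgeR, limma-voom and limma 3.58.1 on log2(TPM + 1) and log2(TPM + 0.1), effective lengths as offsets, other filters, grouping by the genotype tag, and leaving out libraries. Members and lists were chosen with earlier results of these data known. Beyond the members, the text names every called gene of a list (at most 8) or, where none was called, the 3 with the highest mean TPM (1 such gene is not reported here), and the 5 genes most like Acta1, Des and Myh3 among protein-coding genes with mean log2 CPM of at least 2.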

Additional observations from a re-analysis of the deposited data

How the results depend on the processing

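Calls between KO and WT were few and moved with the fit. With passage as a replicate block, pairing the libraries by number, 2 members, 10 genes of the wider muscle lists and 7 fibroblast contractile genes were called, against 1, 1 and 2 without it. Of the member calls it added Des and changed no other. In the same order the genotype tag gave 0, 0 and 0 calls, no filter 0, 5 and 4, and dropping both passage 2 libraries 0, 0 and 1. DESeq2 called 7 wider and 7 contractile genes, and log2(TPM + 1) and log2(TPM + 0.1) each called 0 members and 4 wider genes. Leaving out 1 library at a time gave 0 to 1 members, 0 to 2 wider genes and 0 to 1 contractile genes. For passage, where 4 members and 1 wider gene were called, a minimum count of 30 gave 1 and 0, dropping passage 2 gave 1 and 0, and leaving out 1 library gave 0 to 3 and 0 to 8. DESeq2 called 6 wider genes with passage, no filter 21 and log2(TPM + 1) 2. Acta1 kept its direction between genotypes in all 17 alternatives, and the 4 member declines with passage kept theirs in each alternative that tested them. Directions that turned had no call. The KO against WT change of Myh3 was 1.55 by tag, 0.25 by limma-voom and 0.0075 on log2(TPM + 0.1), and -2.09 to 1.42 with 1 library left out. That of Ttn was -0.19 with effective lengths, -0.015 on log2(TPM + 1), -0.21 on log2(TPM + 0.1) and -0.50 to 1.23 with 1 library left out. That of Actc1 was -0.047 with effective lengths and -0.998 to 0.45 with 1 library left out. Without passage 2 the change per passage was -0.95 for Acta1 and 0.18 for Tnnt2, and with 1 library left out that of Acta1 was -0.17 to 0.54. The causes of these turns were not tested. Counts under 30 limit the precision of Myod1, Myog and, after passage 2, of Myh3 and Actc1. They also limit that of Tnnt2 and Tnnt3 in a part of the libraries. The repeats for Fabp3, Tnni1 and the contractile genes were chosen after seeing the data.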

Other observations

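Pax3, a factor of muscle precursors that other mesoderm and neural crest also use, did not follow the myogenic members. It had 0.757, 1.25 and 1.30 CPM in KO at passages 2, 3 and 4 and 0.780, 0.877 and 0.662 CPM in WT, and was called by edgeR neither between genotypes (log2 0.51 ± 0.32, adjusted p = 0.400) nor with passage (0.15 ± 0.19 per passage, adjusted p = 0.732). Prr33, annotated on the strand opposite to Tnnt3 without shared exon bases, had 2.56, 1.68 and 1.40 CPM in KO and 3.29, 1.98 and 0.869 CPM in WT.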
